A study of Mus musculus with 9 samples.

Results

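Transcript levels of 9 mucosal defence genes were examined in 9 mouse RNA sequencing libraries. The genes were Ltf, Lcn2, Slpi, S100a8, S100a9, Pigr, Sftpd, Wfdc2 and Psca, and they are 9 of the 56481 gene symbols in the deposited count table, of which 31906 had a count in any library. They are genes of the surface and glands of mucosal epithelia and were chosen by name with their measured levels in the iCEC, pCEC and pNCC libraries already known. Their values and fold changes are therefore a description and carry no test. Tests are given for the genes of 8 related families and pathways. Those lists, too, were drawn up with earlier results of these data known.

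Libraries came from 3 groups of 3. The iCEC libraries are labelled induced corneal endothelial cells, made from neural crest cells on gelatin in DMEM/F12 with 5% knockout serum replacement (KSR), nonessential amino acids, 2-mercaptoethanol and SB431542, which blocks the kinase of a TGF-β receptor, at 5 µM. Clusters were seen by day 4 and colonies were examined on day 12, with fresh medium every 2 days. The pCEC libraries are labelled primary corneal endothelial cells, and the pNCC libraries are primary neural crest cells of E13.5 embryos, both maintained in medium with 10% fetal bovine serum, nonessential amino acids and glutamine. pCEC 2 and pCEC 3 are labelled total RNA and the other libraries polyA RNA. No strain, genotype, sex or age of the pCEC donors is given, nor is it stated if the replicates were separate animals or cultures. The p values therefore describe the spread among these libraries, which may be technical.

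Library totals lay between 27389292 counts (pCEC 3) and 47967113 counts (iCEC 1), and 3 counts amounted to 0.0625 to 0.110 CPM (each gene's count scaled to its library's total). iCEC 3 stood apart from the other iCEC libraries, at a root mean square log2 CPM difference of 1.73 from iCEC 1 and 1.80 from iCEC 2, which were 1.17 apart (17616 genes). The labelled identities were checked against marker genes. Krt12, the keratin of the corneal epithelium, had 0, 0 and 1 counts in the iCEC libraries, 299927, 375992 and 305253 in the pCEC libraries and 0 in all pNCC libraries. Col8a2, a collagen of the basement membrane made by the corneal endothelium, had 0, 4 and 4 counts in the iCEC libraries, 2579, 5508 and 1029 in the pCEC libraries and 592, 168 and 334 in the pNCC libraries. The libraries labelled pCEC thus held abundant transcripts of a corneal epithelial keratin beside the endothelial collagen, and the iCEC libraries had next to no counts of either. Markers of simple and of stratified surface epithelia, pooled (13 genes), summed to 19018 to 23203 CPM in iCEC, 24213 to 35079 CPM in pCEC and 95.6 to 147 CPM in pNCC. Single genes of that sum differed between iCEC and pCEC. The simple keratins Krt8 and Krt18 had means of 1340 and 721 CPM in iCEC and 3.86 and 1.66 CPM in pCEC. Keratins of stratified epithelia went both ways. Krt5 had means of 6275 CPM in iCEC and 27394 CPM in pCEC, and Krt14 means of 7768 and 1282 CPM. The epithelial factor Trp63 had means of 262.5 CPM in iCEC and 352.7 CPM in pCEC. In bulk libraries, fewer cells of a type and less RNA per cell cannot be told apart.

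Mucosal surfaces such as the ocular surface, airway and gut are covered by fluid that holds antimicrobial proteins made by the epithelium, by glands and by neutrophils. Several of these proteins starve microbes of metals: lactoferrin (Ltf) binds iron, lipocalin 2 (Lcn2) captures the siderophores with which bacteria collect iron, and calprotectin, the pair of S100a8 and S100a9, binds zinc and manganese. Slpi and Wfdc2 carry whey acidic protein (WAP) domains, and Slpi inhibits neutrophil elastase. Surfactant protein D (Sftpd) is a collectin that binds sugars on microbes. Pigr and Psca are not free secreted proteins at first: Pigr is the membrane receptor that carries polymeric IgA across epithelia and is then cleaved to release secretory component, and Psca is a lipid-anchored surface protein of the Ly6 family. Lactoferrin and lipocalins are well known proteins of tears, which bathe the outer face of the cornea, whereas the corneal endothelium lines its inner face.

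Promoter sequences from RefSeq (GRCm38.p6) were at hand for 7 of the 9 genes. Psca and Sftpd were not in that table. Those of Ltf, Lcn2, S100a8 and S100a9 are shown because their levels differed widely between libraries of a group, and that of Slpi because its levels were close together in iCEC. Each run holds the 250 bases before the RefSeq start, read 5′ to 3′ on the gene's strand, with capitals marking TTGCNNAA on either strand, a core of sites bound by C/EBP transcription factors, or the TATA box letters TATAAA.
Ltf (chr9:111019042-111019291, + strand): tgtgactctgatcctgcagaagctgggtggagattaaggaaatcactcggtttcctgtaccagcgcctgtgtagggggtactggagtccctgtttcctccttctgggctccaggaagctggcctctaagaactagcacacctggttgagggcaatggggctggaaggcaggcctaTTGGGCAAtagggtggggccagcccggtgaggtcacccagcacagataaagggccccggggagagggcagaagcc
Lcn2 (chr2:32387740-32387989, - strand): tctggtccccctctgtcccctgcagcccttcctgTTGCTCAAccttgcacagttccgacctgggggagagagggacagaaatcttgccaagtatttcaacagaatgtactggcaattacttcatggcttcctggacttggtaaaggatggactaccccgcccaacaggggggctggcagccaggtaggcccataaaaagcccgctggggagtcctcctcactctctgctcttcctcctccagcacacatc
S100a8 (chr3:90668821-90669070, + strand): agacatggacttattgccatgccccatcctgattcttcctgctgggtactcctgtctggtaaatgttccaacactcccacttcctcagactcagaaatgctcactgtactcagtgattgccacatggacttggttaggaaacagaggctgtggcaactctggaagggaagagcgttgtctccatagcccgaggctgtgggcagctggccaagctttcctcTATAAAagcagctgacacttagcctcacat
S100a9 (chr3:90695722-90695971, - strand): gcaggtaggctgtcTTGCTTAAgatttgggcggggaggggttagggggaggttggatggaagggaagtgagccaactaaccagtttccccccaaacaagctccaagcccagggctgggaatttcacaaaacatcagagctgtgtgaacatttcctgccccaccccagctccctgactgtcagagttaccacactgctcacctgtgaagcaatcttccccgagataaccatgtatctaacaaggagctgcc
Slpi (chr2:164356508-164356757, - strand): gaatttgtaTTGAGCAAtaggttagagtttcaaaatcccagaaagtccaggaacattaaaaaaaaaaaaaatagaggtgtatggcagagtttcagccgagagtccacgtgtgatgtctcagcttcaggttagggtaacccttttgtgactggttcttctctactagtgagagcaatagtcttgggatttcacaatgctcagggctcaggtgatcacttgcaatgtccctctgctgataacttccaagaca
TTGCNNAA lay 75 to 68 bases before the start of Ltf, 216 to 209 before that of Lcn2, 236 to 229 before that of S100a9 and 241 to 234 before that of Slpi. In Ltf and Slpi it read on the opposite strand. In the full windows of 300 bases (250 before to 50 after the start) it was present in 4 of the 7 genes and in 10.8% of 32851 promoters. TATAAA was present 30 to 25 bases before the start of S100a8 and, in S100a9, at bases 1 to 6 after the RefSeq start, outside the run shown, thus in 2 of 7 genes and in 13.62% of all promoters. The ETS core AGGAAG was found on either strand in 5 of 7 (35.35% of all promoters), TTCNNNGAA of STAT sites in Pigr alone (8.298%) and an NF-kB core, GGG and TTTCC with 2 bases between, in 0 of 7 (1.629%). These motifs were chosen after the levels were known, and a match describes the letters only.

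In iCEC, the 9 genes together took 2.28% of all counts in iCEC 1, 4.51% in iCEC 2 and 0.123% in iCEC 3. They took 0.227%, 0.0676% and 0.139% in pCEC 1 to 3, and 0.00247%, 0.00139% and 0.000851% in pNCC 1 to 3. Ltf alone made up 77.9%, 83.3% and 42.2% of that sum in the iCEC libraries. Every iCEC library lay above every pNCC library for 7 of the 9 genes, beside 25.1% of all 16293 genes tested. The exceptions were S100a8 and S100a9. Against pCEC, every iCEC library was higher for 6 of the 9 genes, beside 24.4% of 16278 genes. Every pCEC library was higher than every pNCC library for 5 genes, beside 30.8% of 16608, and lower for 1, Slpi, beside 39.9%. The filter on low counts passed 7 of the 9 genes in each comparison with pNCC and all 9 in iCEC against pCEC. Calls of these genes are not counted. Of all genes tested in iCEC against pNCC, 31.3% differed past an adjusted p of 0.05 (edgeR), 16.1% upward. In pCEC against pNCC 62.5% differed (30.3% upward and 32.2% downward), and in iCEC against pCEC 20.4% (10.5% upward and 9.92% downward). Since the 9 genes were chosen with these levels known, nothing is read from the counts of genes without overlap.

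**Figure D1:**
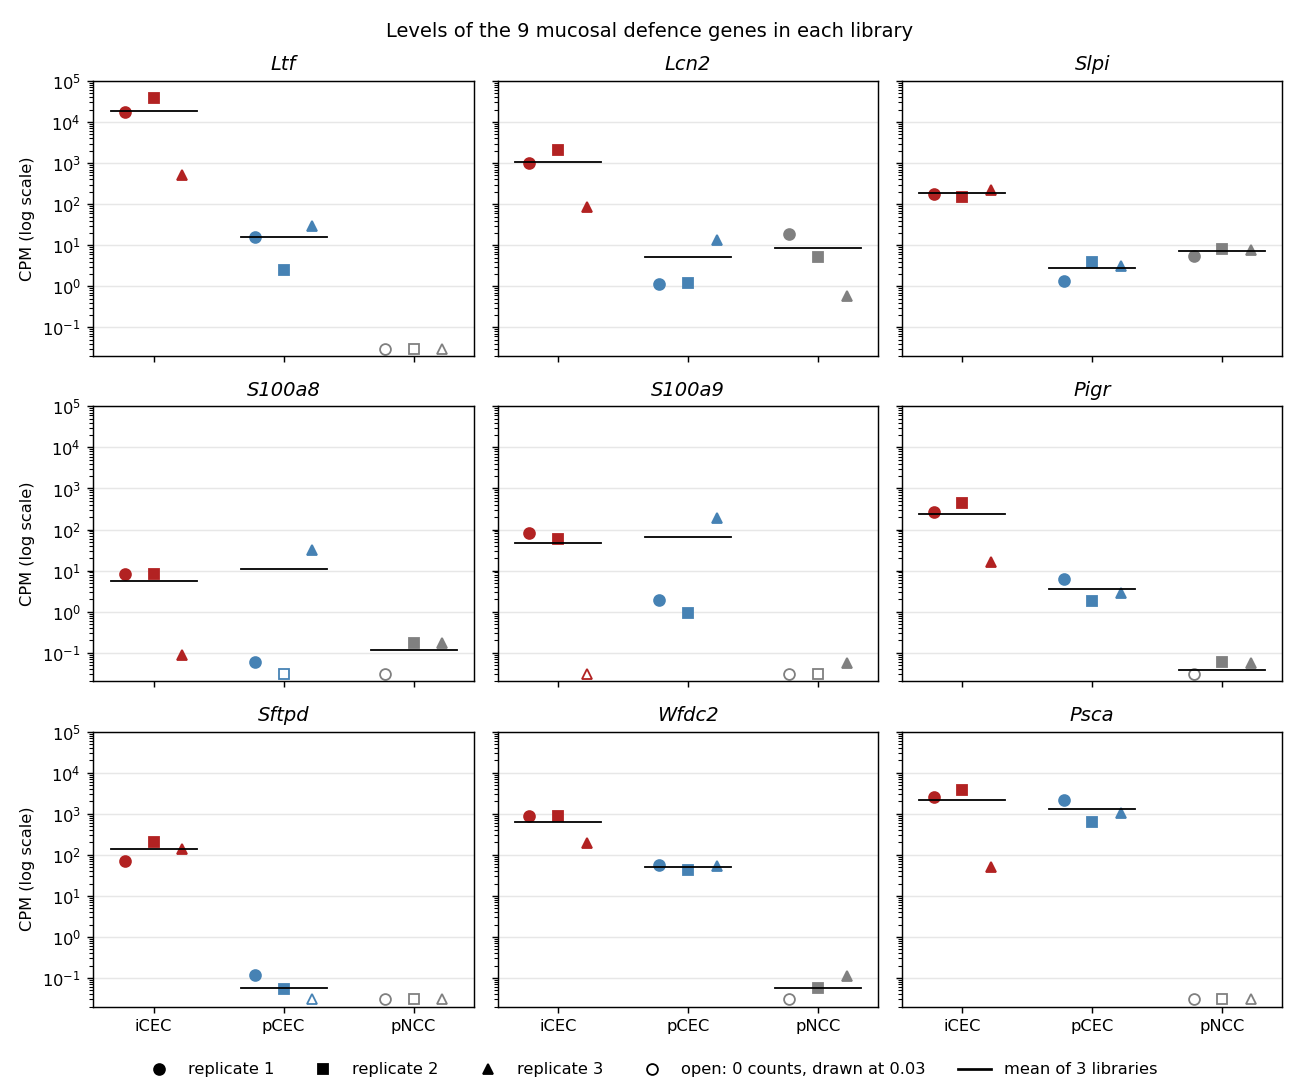
CPM of each of the 9 genes (log axis) in the iCEC, pCEC and pNCC libraries, with a marker shape for each replicate and a line at the mean of 3 libraries. Open markers at 0.03 are libraries with 0 counts. iCEC 3 lies far below iCEC 1 and iCEC 2 for Ltf (519.6 CPM against 17781 and 37599 CPM) but beside them for Slpi and Sftpd.

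**Figure D2:**
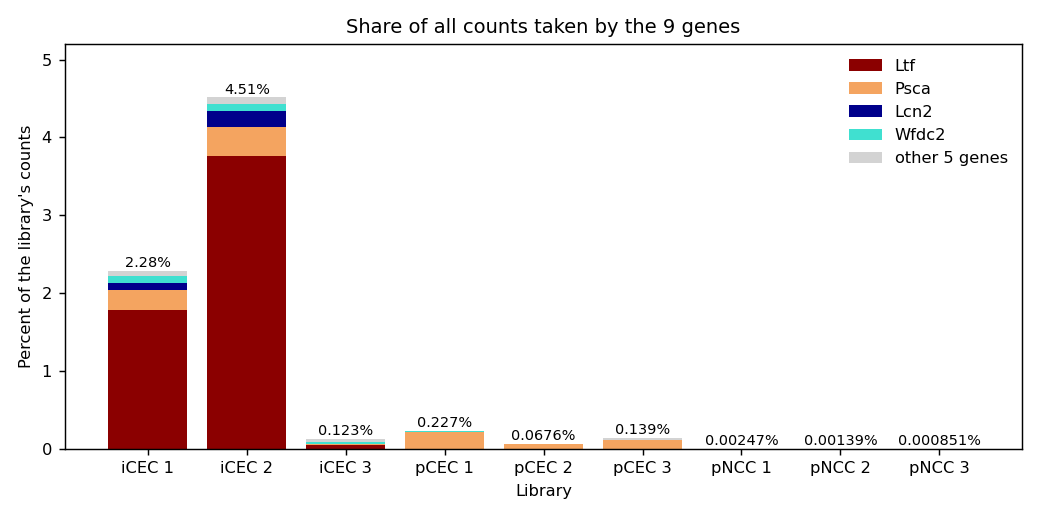
Percent of each library's counts taken by the 9 genes, stacked by gene, for the 9 libraries. Ltf makes up most of the 2.28% in iCEC 1 and the 4.51% in iCEC 2, and Psca most of the sum in the pCEC libraries.

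Lactoferrin had the highest mean of the 9 genes in iCEC and no counts in neural crest cells. Ltf (chromosome 9, 111019271 to 111042767, plus strand, GRCm38) stood at 17781, 37599 and 519.6 CPM in iCEC 1 to 3, at 15.7, 2.52 and 28.7 CPM in pCEC 1 to 3, and at 0 counts in all pNCC libraries. It ranked 2 and 1 among all genes in iCEC 1 and iCEC 2 but 218 in iCEC 3, so the group mean of 18633 ± 18555 CPM (SD, n = 3) rests on the first and second libraries. The groups did not overlap. With pNCC set at 3 counts per library, Ltf was at least 227081-fold higher in iCEC (338051 without iCEC 3 and 105840 without iCEC 2) and at least 195-fold higher in pCEC (108 without pCEC 3). Between iCEC and pCEC the fitted difference was 1135-fold, with 1729-fold without iCEC 3, 552-fold without iCEC 2 and 2065-fold without pCEC 3.

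Lipocalin 2 followed the same order of libraries within iCEC but, unlike Ltf, had counts in neural crest cells. Lcn2 (chromosome 2, 32384633 to 32388252, minus strand) stood at 982, 2092 and 87.9 CPM in iCEC 1 to 3, at 1.14, 1.22 and 13.2 CPM in pCEC 1 to 3, and at 19.2, 5.28 and 0.571 CPM in pNCC 1 to 3. All iCEC libraries were above all others, while pCEC and pNCC overlapped. Lcn2 was 138-fold higher in iCEC than in pNCC (199-fold without iCEC 3, 66.5-fold without iCEC 2, 388-fold without pNCC 1) and 188-fold higher than in pCEC (286-fold without iCEC 3, 95.1-fold without iCEC 2, 872-fold without pCEC 3). Its mean was 5.19 ± 6.95 CPM in pCEC and 8.35 ± 9.69 CPM in pNCC (SD, n = 3), each SD above its mean. The fitted difference of pCEC against pNCC, a log2 fold change of -0.50, became 1.01 without pNCC 1 and -2.68 without pCEC 3.

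Against neural crest cells, the other genes of iron handling that were called with all libraries in the fit were lower. Of 16 genes for iron and siderophore binding and for receptors of both proteins, 12 were tested in iCEC against pNCC: 0 rose and 6 fell, with a median log2 fold change of -0.86 (0.05 over all genes tested). The 6 became 2, 2 and 1 without pNCC 1, 2 and 3, and 2 genes rose, beside 6 that fell, without iCEC 3 and with DESeq2. Hmox1, the heme oxygenase that frees iron from heme, fell 3.98-fold, to 47.7 ± 9.98 CPM in iCEC, against 190.5 ± 11.6 CPM in pNCC (adjusted p = 0.00141, edgeR). The ferritin light chain Ftl1, which has near-identical copies in the genome that could share its reads, fell 2.15-fold (adjusted p = 0.0122, and 0.0536 without pNCC 3). The endocytic receptors Lrp1, a receptor of lactoferrin, and Lrp2, a receptor of lipocalin 2, fell 5.44-fold (adjusted p = 0.0159) and 34.8-fold (adjusted p = 0.0149). Both of these calls were lost without any 1 of the pNCC libraries (adjusted p 0.0515 to 0.0582), and without iCEC 1 the log2 fold change of Lrp2 was -7.22, beside -5.12 with it. In pCEC against pNCC, 0 rose and 9 fell of 12, with a median of -2.11 (-0.01 over all genes): Hmox1 fell 56.4-fold (log2 fold change -5.82, and -6.46 without pCEC 3), Ftl1 9.24-fold, the haemoglobin scavenger haptoglobin (Hp) 93.6-fold and Lrp2, at 0 in all pCEC libraries, at least 65.7-fold (adjusted p 2.19e-05 to 0.000114). In iCEC against pCEC, 4 rose and 0 fell of 11, with a median of 1.5 (0.04 over all genes). Those were Ftl1 (4.27-fold, adjusted p = 0.00472), Hp (839-fold, 0.00674; its level in iCEC 3 was 301 CPM, and the log2 fold change was 8.05 without that library and 9.71 with it), Hmox1 (13.9-fold, 0.00818; log2 fold change 4.49 without pCEC 3 and 3.80 with it) and the transferrin receptor Tfrc (2.82-fold, 0.0103, and 0.0513 without pCEC 1).

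The WAP domain genes Slpi and Wfdc2 were both high in iCEC and differed in the other groups. Slpi (chromosome 2, 164354070 to 164389095, minus strand) stood at 181.5, 153.6 and 220.1 CPM in iCEC 1 to 3, at 1.35, 3.94 and 3.10 CPM in pCEC 1 to 3, and at 5.44, 8.33 and 7.54 CPM in pNCC 1 to 3. The 3 groups did not overlap, and the iCEC libraries were the closest together of any of the 9 genes. Slpi was 25.9-fold higher in iCEC than in pNCC and 59.5-fold higher than in pCEC, with ranges of 22.8 to 27.6 and 46.3 to 74.2 when each library was left out in turn. It was 2.30-fold lower in pCEC than in pNCC. Wfdc2 (chromosome 2, 164562413 to 164568510, plus strand) stood at 866, 859 and 199 CPM in iCEC 1 to 3, at 57.7, 42.2 and 54.2 CPM in pCEC 1 to 3, and at 0, 0.0586 and 0.114 CPM in pNCC 1 to 3. Its groups did not overlap either. Wfdc2 was 10794-fold higher in iCEC than in pNCC (14480-fold without iCEC 3, and 20306-fold without pNCC 3, whose 4 counts were most of the pNCC sum of 6), 889-fold higher in pCEC than in pNCC (1661-fold without pNCC 3) and 11.8-fold higher in iCEC than in pCEC (16.5-fold without iCEC 3).

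Few other WAP domain genes were expressed. Of 20, 6 were at 0 in all libraries and 6 were tested in iCEC against pNCC, where 2 rose and 1 fell (median log2 fold change 5.09, or 4.28 with genes at 0 in a group set at their bound). Wfdc5, at 2.34, 1.34 and 3.21 CPM in the iCEC libraries and at 0 in pNCC, was at least 25.2-fold higher (adjusted p = 0.00466). Wfdc18, at 10.3, 302 and 895 CPM in iCEC 1 to 3, rose 3712-fold (adjusted p = 0.00891, and 0.0537 without pNCC 1; log2 fold change 11.86, 13.44 without pNCC 2 and 10.69 without iCEC 3). Its highest iCEC library was thus the one in which Ltf and Lcn2 were lowest. Wfikkn2 fell, with a ratio of summed counts of 45.3 (95% exact interval 12.1 to 381; adjusted p = 0.0206), a call lost without any 1 of the pNCC libraries and without iCEC 1 (adjusted p 0.0519 to 0.0845). Without pNCC 1 the list held 1 call, and without iCEC 1 it held 5, all higher. For pCEC against pNCC, 2 rose and 1 fell of 3 tested (median 3.42): Wfdc5 at least 31.9-fold higher, Wfikkn1 10.7-fold higher (adjusted p = 0.0117; log2 fold change 3.42, with 2.71 without pCEC 2, and 0.52 at an adjusted p of 0.484 with the polyA RNA library pCEC 1 alone) and Wfikkn2 10.9-fold lower (0.0133, and 0.0529 without pNCC 1; log2 fold change -3.45, and -2.79 without pCEC 1 and -4.22 without pCEC 2). For iCEC against pCEC, 2 rose and 0 fell of 4 (median 3.32). They were Wfdc18 (808-fold, adjusted p = 0.0259) and Wfdc3 (125-fold, 0.0477), and both calls were lost without any 1 of the pCEC libraries (adjusted p 0.0635 to 0.163), that of Wfdc3 also without iCEC 2 (0.0543). The log2 fold change of Wfdc18, 9.66, was 8.47 without iCEC 3, 9.07 without pCEC 1 and 12.27 without pCEC 2. Wfdc3 stood at 0.334, 3.19 and 52.4 CPM in iCEC 1 to 3, and its log2 fold change was 3.78 without iCEC 3 and 6.96 with it.

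The calprotectin genes S100a8 and S100a9 differed widely between libraries of a group, and their levels in pCEC were set by pCEC 3. S100a9 (chromosome 3, 90692632 to 90695721, minus strand) stood at 81.7, 58.4 and 0 CPM in iCEC 1 to 3, at 1.92, 0.943 and 191 CPM in pCEC 1 to 3, and at 0, 0 and 0.0571 CPM in pNCC 1 to 3. S100a8 (chromosome 3, 90668978 to 90670035, plus strand), 22597 bases away, stood at 8.44, 8.28 and 0.0893 CPM in iCEC 1 to 3, at 0.0598, 0 and 32.3 CPM in pCEC 1 to 3, and at 0, 0.176 and 0.171 CPM in pNCC 1 to 3. Both genes were thus high in iCEC 1, iCEC 2 and pCEC 3 and near 0 or low elsewhere. In those 3 libraries S100a9 had 90.6% (95% exact interval 89.7 to 91.5), 87.6% (86.2 to 88.9) and 85.5% (84.6 to 86.4) of the pair's counts. Per exon length, S100a9 was 12.9, 9.37 and 7.85 times the level of S100a8 in iCEC 1, iCEC 2 and pCEC 3. Over summed counts, S100a9 was 2608-fold higher in iCEC than in pNCC (95% exact interval 722 to 21536) and 3032-fold higher in pCEC (839 to 25043), intervals that cover counting error only, and 5221 of the 5319 pCEC counts were from pCEC 3. Neither gene passed the filter in iCEC against pNCC, and S100a8 did not in pCEC against pNCC. Between iCEC and pCEC, S100a8 was 2.11-fold and S100a9 1.52-fold lower with overlapping groups, and without pCEC 3 the same fits gave 171-fold and 32.1-fold higher in iCEC.

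Neutrophils carry large amounts of both proteins and of Ltf and Lcn2, so neutrophil markers were read beside them. Of 12 such markers, 6 were at 0 in all iCEC libraries, 5 in all pCEC libraries and 6 in all pNCC libraries, and only 1 exceeded 1 CPM in any library of a group. Their sum was 5.19, 77.1 and 0.208 CPM in iCEC 1 to 3, 64.6, 25.1 and 48.6 CPM in pCEC 1 to 3, and 1.49 to 2.02 CPM in pNCC. In iCEC and pCEC nearly all of it was Itgam, an integrin subunit of myeloid cells, with 241, 2797 and 0 counts in iCEC and 2152, 874 and 1310 counts in pCEC. Ly6g and Ngp, which mark mature neutrophils and their granules, were at 0 in all 9 libraries, Mpo had at most 16 counts in a library and Elane at most 3. Of 12 macrophage and leukocyte markers, 7 were at 0 in iCEC, 0 in pCEC and 0 in pNCC. In those groups 3, 11 and 4 of the 12 exceeded 1 CPM in some library. Among them, Ptprc was at 0 in all iCEC libraries and had 8, 44 and 30 counts in pCEC and 16, 2 and 10 in pNCC. Cd68 had 1484, 1906 and 94 counts and Csf1r 8, 26 and 521 counts in iCEC 1 to 3. Cd74 had 134, 881 and 359 counts in pCEC 1 to 3. Cxcr2 had 0, 2 and 8 counts and Csf3r 4, 18 and 8 counts in pCEC 1 to 3, and both were at 0 in iCEC and pNCC. The part of neutrophils and other leukocytes in the levels of these genes was not tested.

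Other S100 genes rose more often than they fell against neural crest cells. For iCEC the number called changed when single libraries were left out, as did the total over all 8 lists. Of 14, 11 were tested in iCEC against pNCC, 7 rose and 1 fell, with a median log2 fold change of 2.71. S100a14 rose 351-fold (adjusted p = 0.00180, edgeR), S100a1 16.2-fold (0.00471), S100a16 32.5-fold (0.00862, and 0.0502 without pNCC 2) and S100a3 167-fold (0.0213, lost without iCEC 2 and without any 1 of the pNCC libraries, adjusted p 0.0506 to 0.0919). S100a14 stood at 936, 876 and 205 CPM in iCEC 1 to 3 and at 1.62, 1.64 and 2.74 CPM in pNCC 1 to 3. The number that rose was 3, 2 and 3 of 12 without pNCC 1, 2 and 3, 4 of 11 without iCEC 1 or iCEC 2, and 10 of 12 without iCEC 3. In pCEC against pNCC, 8 rose and 3 fell of 11, with a median of 1.79. S100a14 rose 249-fold, S100a16 32.9-fold, the annexin partner S100a10 4.33-fold and S100a6 3.46-fold (adjusted p 3.16e-06 to 0.000171). In iCEC against pCEC, 2 rose and 0 fell of 9, with a median of 0.47: S100a1 8.41-fold (adjusted p = 0.0108) and S100a13 10.1-fold (0.0416), both lost without any 1 of the pCEC libraries (adjusted p 0.0533 to 0.143), and S100a13 also without iCEC 1 or iCEC 2 (0.0959 and 0.0857). Without iCEC 3, 6 rose of 10, and 0 of 11 were called without any 1 of the pCEC libraries.

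Pigr, the transporter of polymeric immunoglobulins, followed Ltf and Lcn2 across the iCEC libraries. Pigr (chromosome 1, 130826684 to 130852249, plus strand) stood at 270.1, 440.5 and 15.98 CPM in iCEC 1 to 3, at 6.16, 1.83 and 2.78 CPM in pCEC 1 to 3, and at 0, 0.0586 and 0.0571 CPM in pNCC 1 to 3. All iCEC libraries were above all pCEC libraries, and these above all pNCC libraries. It was 6089-fold higher in iCEC than in pNCC (8764-fold without iCEC 3, 3437-fold without iCEC 2), 89.7-fold higher in pCEC than in pNCC (range 61.9 to 115 with each library left out) and 66.1-fold higher in iCEC than in pCEC (98.7-fold without iCEC 3, 38.5-fold without iCEC 2). The pNCC libraries held 0, 2 and 2 counts of Pigr, under the limit of 3 counts per library, so the size of both folds against pNCC is uncertain. Some of the partners that route such receptors through epithelial cells rose in both groups. Of 10 genes of immunoglobulin transport, 6 were tested in iCEC against pNCC, 3 rose and 1 fell (median log2 fold change 2.07). Rab25 and Rab17, small GTPases of recycling and transcytosis in epithelia, rose 758-fold (adjusted p = 0.000317; log2 fold change 9.57, and 10.17 without pNCC 3) and 90.7-fold (0.0163, but 0.0679 without pNCC 2 and 0.0630 without pNCC 3; log2 fold change 6.50, 5.91 without pNCC 2 and 10.74 without pNCC 1). The motor Myo5b rose 6.42-fold (0.00387), and the neonatal Fc receptor subunit Fcgrt fell 14.4-fold (0.00394). Between pCEC and pNCC, 5 rose and 1 fell of 7 (median 3.12), among them Rab25 (1813-fold; log2 fold change 10.82, and 11.43 without pNCC 3), Rab17 (313-fold; 8.29, with 12.28 without pNCC 1 and 7.70 without pNCC 2), Rab11a (3.12-fold) and Myo5b (8.67-fold). Between iCEC and pCEC, 0 rose and 2 fell of 8 (median -0.32). They were Rab25 (2.42-fold, adjusted p = 0.0127, but 0.0525 without pCEC 2 and 0.0602 without pCEC 3) and Rab17 (3.46-fold, 0.0478, lost without any 1 library except iCEC 3, at 0.0705 to 0.156). Of 9 plasma and B cell markers, 1 was at 0 in iCEC, 4 in pCEC and 4 in pNCC. The IgA chain Igha had at most 2 counts in a library and the joining chain Jchain at most 10. The IgM chain Ighm had 190, 10 and 0 counts in iCEC 1 to 3 and 8, 29 and 33 counts in pCEC 1 to 3. Cd79b had 30, 49 and 22 counts in pCEC 1 to 3. The part of such cells in the level of Pigr was not tested.

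Surfactant protein D was abundant in all iCEC libraries and had 0 to 4 counts in every other library. Sftpd (chromosome 14, 41172214 to 41185149, minus strand) stood at 70.1, 206 and 138 CPM in iCEC 1 to 3, at 0.120, 0.0555 and 0 CPM in pCEC 1 to 3, and at 0 counts in all pNCC libraries. In iCEC 3 it was at the mean of iCEC 1 and iCEC 2 (138 CPM), in contrast to Ltf, Lcn2, Pigr and Psca. It was at least 1583-fold higher in iCEC than in pNCC (1693 without iCEC 3 and 1088 without iCEC 2). Against pCEC it was 2004-fold higher (3626 without pCEC 1, 1444 without iCEC 2 and 1462 without pCEC 3). That fitted value rests on 6 counts in pCEC and is not comparable with the bound against pNCC. In pCEC and pNCC it lay at or under the limit of 3 counts per library, apart from 4 counts in pCEC 1. Lung epithelium is a well known source of the protein. Of 10 markers of lung and airway epithelium, Nkx2-1, Sftpa1, Sftpb and Sftpc were at 0 in all 9 libraries, and the club cell gene Scgb1a1 had 8, 12 and 0 counts in iCEC 1 to 3 and 0 elsewhere. The list summed to 26.5 to 55.9 CPM in iCEC, 76.3 to 80.6 CPM in pCEC and 24.0 to 41.6 CPM in pNCC, nearly all of it the lipid transporter Abca3. Of 13 collectins, surfactant proteins and secretoglobins, 6 were at 0 in all libraries and 1, the scavenger collectin Colec12, was tested. Colec12 fell 15.6-fold in iCEC against pNCC (adjusted p = 0.0396, lost without any 1 library except iCEC 3, at 0.0687 to 0.103; log2 fold change -3.96, and -4.56 without iCEC 2) and 53.5-fold in pCEC against pNCC (1.97e-05), and iCEC did not differ from pCEC past the threshold, at a log2 fold change of 1.73, although it was called higher in iCEC without iCEC 3.

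Psca had the highest mean of the 9 genes in pCEC and no counts in neural crest cells. Psca (chromosome 15, 74714839 to 74717069, plus strand) stood at 2595, 3717 and 50.5 CPM in iCEC 1 to 3, at 2182, 624 and 1069 CPM in pCEC 1 to 3, and at 0 counts in all pNCC libraries. It ranked 16, 11 and 4701 among all genes in the iCEC libraries and 32, 165 and 78 in the pCEC libraries. iCEC 3 was below all pCEC libraries, so these groups overlapped. Psca was at least 25688-fold higher in iCEC (38282 without iCEC 3, 15324 without iCEC 2) and at least 15715-fold higher in pCEC than in pNCC. Between iCEC and pCEC the fitted ratio was 1.61, with 2.44 without iCEC 3 and 0.994 without iCEC 2.

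Genes of the Ly6 and urokinase receptor fold, to which Psca belongs, rose more often than they fell against neural crest cells in both groups. Of 25, 13 were tested in iCEC against pNCC, 7 rose and 1 fell, with a median log2 fold change of 2.50. Without iCEC 3, 11 rose and 1 fell of 16. Ly6d, a marker of stratified epithelia, rose 6752-fold (adjusted p = 0.00349), to 1577, 1406 and 76.4 CPM in iCEC 1 to 3, against 0.0622, 0.176 and 0.228 CPM in pNCC 1 to 3. Ly6e rose 6.24-fold (0.00439), Lypd3 237-fold (0.00476; log2 fold change 7.89, with 8.63 without pNCC 3 and 7.08 without iCEC 2) and Ly6g6d, at 0 in pNCC, was at least 17.7-fold higher (0.00445). In pCEC against pNCC, 11 rose and 2 fell of 17, with a median of 5.39, or 3.63 with genes at 0 in a group set at their bound. Lypd2, Slurp1 and Ly6g6c, all at 0 in pNCC, were at least 17644-, 14563- and 3642-fold higher, and Lypd6 rose 41.8-fold (adjusted p 2.03e-06 to 4.75e-06). Slurp1, a secreted member whose locus overlaps Them6 on the other strand, stood at 1423, 982 and 1155 CPM in pCEC 1 to 3. In iCEC against pCEC, 5 rose and 7 fell of 17, with a median of -1.11. Without pCEC 1, 1 rose and 5 fell of 20, 2 rose and 5 fell of 19 without pCEC 2, and 5 rose and 5 fell of 20 without pCEC 3. Ly6d rose 881-fold (adjusted p = 0.00688; log2 fold change 9.78, and 10.37 without iCEC 3), while Lypd6, at 0 in iCEC, was at least 255-fold lower (0.00170), Lypd2 fell 4618-fold (0.00325; log2 fold change -12.17, with -13.03 without iCEC 2 and -11.58 without iCEC 3) and Ly6g6c fell 31.6-fold (0.00744).

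**Figure D3:**
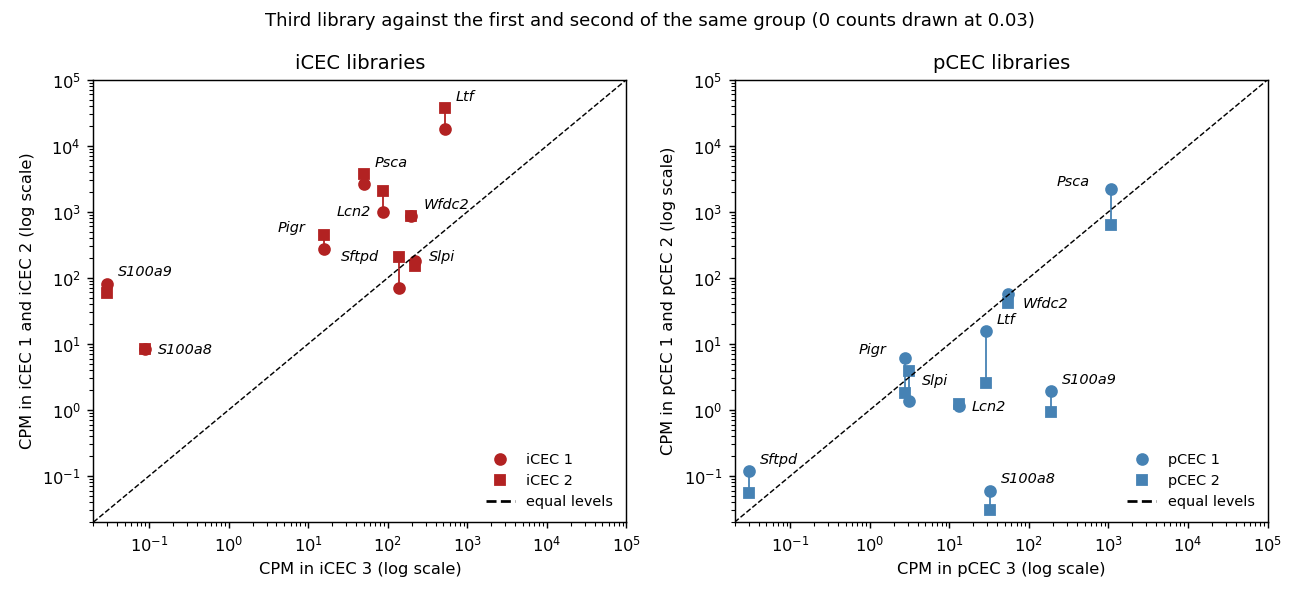
CPM in the third library (horizontal) against the first and second (vertical) of iCEC, left, and pCEC, right, for the 9 genes, on log axes with a dashed line of equal levels and 0 counts drawn at 0.03. In iCEC, 7 genes lie above the line and Slpi and Sftpd near it. In pCEC, S100a8, S100a9 and Lcn2 lie far below it.

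The 9 genes fell into kinds by how they varied within iCEC. The mean of iCEC 1 and iCEC 2 was 62.45 times the level of iCEC 3 for Psca, 53.3 times for Ltf, 22.2 times for Pigr, 17.5 times for Lcn2 and 4.34 times for Wfdc2. It was 1.00 times for Sftpd and 0.761 times for Slpi. S100a8 and S100a9 had 3 and 0 counts in iCEC 3. Within pCEC, pCEC 3 was 133 times the mean of pCEC 1 and pCEC 2 for S100a9, 11.2 times for Lcn2 and 3.15 times for Ltf, but 1.08 times for Wfdc2, 1.17 times for Slpi, 0.694 times for Pigr and 0.762 times for Psca. With 3 libraries in a group these differences have no replicate of their own.

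To set genes side by side, levels were divided by the length of all annotated exons of a gene together. That length can exceed the transcript made, so the order depends on it. The mean in iCEC was 5401 CPM per kb for Ltf, 2466 for Psca, 562 for Wfdc2, 402 for Lcn2 and 157 for Slpi. It was 89.4 for S100a9, 60.2 for Pigr, 57.1 for Sftpd and 8.08 for S100a8. In plain CPM, Lcn2 (mean 1054 in iCEC) lay above Wfdc2 (641). In pCEC the order was Psca (1502 CPM per kb), S100a9 (124), Wfdc2 (45.0), S100a8 (15.5), Ltf (4.54), Slpi (2.37), Lcn2 (1.98), Pigr (0.892) and Sftpd (0.0242). In pNCC, Slpi (6.02 CPM per kb) and Lcn2 (3.19) led, and all others were at or below 0.167. Because of the spread within iCEC, most neighbours in that order were not separated in each library: Ltf led in iCEC 1 and iCEC 2, but in iCEC 3 Slpi, at 187 CPM per kb, and Wfdc2, at 174, lay above Ltf, at 151.

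Other secreted antimicrobial genes were a mixture. Of 40, 19 were tested in iCEC against pNCC, 10 rose and 4 fell, with a median log2 fold change of 1.24. The peroxide-making oxidase Duox1 rose 24.9-fold (adjusted p = 0.00247) and the β-defensin Defb1 1591-fold (0.00450; log2 fold change 10.64, with 14.30 without pNCC 3 and 9.84 without iCEC 1). Defb1 stood at 122, 61.3 and 12.1 CPM in iCEC 1 to 3 and had counts in 1 pNCC library. The lysozyme gene Lyz2, which could share reads with its close copy Lyz1, was at 0 in all iCEC libraries and at least 231-fold lower (0.00141), and the ribonuclease Rnase4, whose locus overlaps that of Ang, fell 3.82-fold (0.00623). The number that rose was 4, 2 and 4 without pNCC 1, 2 and 3, and 5 with no filter on low counts, while without iCEC 3 it was 14 of 24. With pCEC set against pNCC, 7 rose and 6 fell of 18 (median -0.63), with Duox1 21.2-fold, Defb1 2009-fold (log2 fold change 10.97, and 14.41 without pNCC 3) and the peptidoglycan recognition protein Pglyrp1 2537-fold higher (11.31, with 13.77 without pNCC 1 and 10.71 without pNCC 2), and Ang 11.1-fold lower (adjusted p 5.63e-06 to 5.44e-05). With iCEC set against pCEC, 6 rose and 2 fell of 21 (median 0.62). Rnase4 rose 5.46-fold (adjusted p = 0.00688) and ceruloplasmin (Cp) 13.49-fold (0.00702; log2 fold change 3.75, and 4.41 without pCEC 3). Pglyrp3, with a ratio of summed counts of 624 (95% exact interval 112 to 24682), rose (0.0122, but 0.0615 to 0.0635 without any 1 of the pCEC libraries), and Lyz2 was at least 107-fold lower (0.0198, but 0.0740 without pCEC 2 and 0.0707 without pCEC 3). The number that rose was 2 without any 1 of the pCEC libraries and 11 of 24 without iCEC 3.

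Among 33 sensors and regulators of epithelial defence, all were detected and 31 were tested in iCEC against pNCC, where 10 rose and 4 fell (median log2 fold change 0.50). The epithelial ETS factor Ehf rose 5439-fold (adjusted p = 0.000268; log2 fold change 12.41, and 13.04 without pNCC 1), the interleukin 17 receptor subunit Il17re 1285-fold (0.000724; 10.33, with 9.74 without pNCC 2 and 12.09 without pNCC 3) and Tnfaip3, an inhibitor of NF-kB signalling, 5.49-fold (0.00164). The shared cytokine receptor Il6st fell 6.15-fold (0.00351). In contrast to Ltf and Lcn2, Ehf and Il17re were as high in iCEC 3 (911 and 71.8 CPM) as in iCEC 1 (618 and 84.0 CPM) and iCEC 2 (795 and 82.6 CPM). In pCEC against pNCC, 15 rose and 11 fell of 32 (median 0.41), with Ehf 4532-fold (log2 fold change 12.15, and 12.78 without pNCC 1), Il17re 1577-fold (10.62, with 10.03 without pNCC 2 and 12.36 without pNCC 3) and the ETS factor Elf3 higher by a ratio of summed counts of 38449 (95% exact interval 10643 to 317489; fitted log2 fold change 14.99, and 17.56 without pNCC 1), and the hypoxia factor Hif1a 5.76-fold lower (adjusted p 1.41e-06 to 7.10e-06). In iCEC against pCEC, 6 rose and 1 fell of 31 (median 0.30), with 1, 1 and 3 that rose and 0 that fell without pCEC 1, 2 and 3, and 12 that rose and 2 that fell without iCEC 3. Hif1a rose 3.45-fold (adjusted p = 0.00406), the endotoxin co-receptor Cd14 66.1-fold (0.00948), the NF-kB subunit Relb 3.16-fold (0.0104) and the RNA sensor Tlr3 2.82-fold (0.0154). Cd14 stood at 366, 499 and 47.7 CPM in iCEC 1 to 3 and at 4.07, 4.16 and 4.89 CPM in pCEC 1 to 3. The calls of Cd14 and Relb were lost without pCEC 1 or pCEC 2 (adjusted p 0.0525 to 0.0583), and that of Tlr3 without any 1 of the pCEC libraries (0.0661 to 0.0776).

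**Figure D4:**
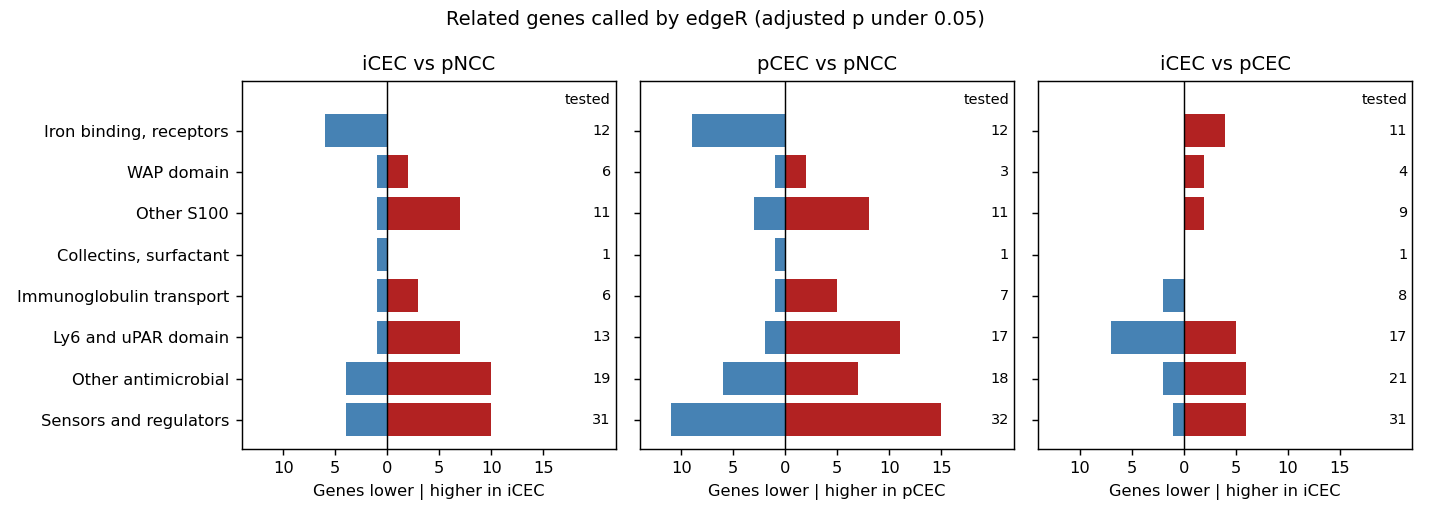
Numbers of related genes lower (left of 0) and higher (right of 0) past an adjusted p of 0.05, by list and comparison, with the number tested at the right edge. Iron genes lie to the left in both comparisons with pNCC (6 of 12 and 9 of 12) and to the right in iCEC against pCEC (4 of 11).

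Over all 8 lists, 171 genes of which 21 were at 0 in all libraries, 39 rose and 19 fell of 99 tested in iCEC against pNCC, with a median log2 fold change of 1.00. In pCEC against pNCC 48 rose and 34 fell of 101 (median 0.46), and in iCEC against pCEC 25 rose and 12 fell of 102 (median 0.33). These shares stand beside the 31.3%, 62.5% and 20.4% of all genes tested that differed. The count of 58 for iCEC against pNCC was 34, 29 and 32 without pNCC 1, 2 and 3, and 76 without iCEC 3. The count of 37 for iCEC against pCEC was 56 without iCEC 3, 15, 14 and 19 without pCEC 1, 2 and 3, and 0 with pCEC 1, the polyA RNA library of pCEC, set alone against iCEC, where 31 genes had an unadjusted p under 0.05. For pCEC against pNCC the 82 calls stayed between 76 and 82 with any library left out. A fit with a library fewer can also lose calls for want of replicates. The shares called over all genes in those fits are not given here, so lost calls are not read as a trait of these lists.

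Acinar glands and goblet cells also make several of these proteins. Of 11 markers of lacrimal and salivary acini, 7 were at 0 in iCEC, 7 in pCEC and 8 in pNCC. Their sum was 4.57 to 14.7 CPM in iCEC, 4925 to 5722 CPM in pCEC and 2.77 to 6.92 CPM in pNCC, with the pCEC sum almost all from the water channel Aqp5, which the corneal epithelium also expresses. The lactoperoxidase gene Lpo had 40, 416 and 24 counts in iCEC 1 to 3, 0, 2 and 4 counts in pCEC 1 to 3 and 0 in pNCC (adjusted p = 0.0450 for iCEC against pNCC, edgeR), and was thus highest in iCEC 2, as was Ltf. Bhlha15, a factor of secretory cells, had 106, 56 and 10 counts in iCEC 1 to 3 and 0, 2 and 2 counts in pNCC 1 to 3, a 33.2-fold difference (adjusted p = 0.0215). Amy1 and Aqp5, also tested for iCEC against pNCC, did not differ (adjusted p = 0.915 and 0.645, edgeR). Against pCEC, neither Lpo nor Bhlha15 differed past the threshold (adjusted p = 0.0557 and 0.196). Of 10 goblet cell markers, 1 was at 0 in iCEC, 4 in pCEC and 5 in pNCC. They summed to 6.21, 6.59 and 8.69 CPM in iCEC 1 to 3, 1.35 to 3.98 CPM in pCEC and 0.514 to 1.495 CPM in pNCC, and Tff2 was at 0 everywhere. Among iCEC 1 to 3, the mucin genes Muc5ac had 10, 0 and 2 counts, Muc5b 168, 40 and 0 counts and Muc2 24, 150 and 141 counts, and Agr2 had 24, 8 and 133 counts. Clca1 had 55, 39 and 14 counts in iCEC 1 to 3 and 3, 5 and 0 counts in pNCC 1 to 3, an 11.1-fold difference (adjusted p = 0.0443). Muc2, also tested for iCEC against pNCC, did not differ past the threshold (adjusted p = 0.165, edgeR), nor did Clca1 against pCEC (0.711). The part of these cell types in the levels of the 9 genes was not tested.

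Genes beside the members on the chromosome were mixed in their levels. Of the 4 nearest protein-coding genes, 2 on each side, Rtp3 beside Ltf, Svs5 and Svs6 beside Slpi, Sftpa1, Gm2832 and Gm5798 beside Sftpd, Wfdc6a beside Wfdc2 and Gm5849 beside S100a9 were at 0 in all libraries. Beside the calprotectin genes, S100a7a (14.6, 5.48 and 1.19 CPM in iCEC 1 to 3, 27.7, 4.41 and 40.2 CPM in pCEC 1 to 3, and 0.228 to 0.497 CPM in pNCC) and Pglyrp4 (30.3, 19.5 and 0.476 CPM in iCEC 1 to 3, 54.2, 17.2 and 77.4 CPM in pCEC 1 to 3, and 0 in pNCC) were also lowest in iCEC 3 among iCEC and highest in pCEC 3 among pCEC. Slurp1, 7249 bases from Psca, had 3.59, 6.21 and 0.119 CPM in iCEC 1 to 3 beside the 2595, 3717 and 50.5 CPM of Psca. Ccrl2, beside Ltf, stood at 14.7, 21.1 and 6.07 CPM in iCEC 1 to 3, at 0.479, 1.55 and 2.12 CPM in pCEC 1 to 3, and at 1.18, 0.352 and 0.400 CPM in pNCC 1 to 3. Beside Pigr, Fcamr, the receptor for IgA and IgM, was at 6.86, 4.52 and 0.0595 CPM in iCEC 1 to 3 and at 4.82, 1.80 and 2.12 CPM in pCEC 1 to 3. Exons of the 9 genes overlapped those of 1 other gene, by 1 base (Slpi and Mir7678).

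The genes whose profiles over the 9 libraries were most like those of the members were sought among 10135 genes, by the root mean square difference of log2 CPM centred on each gene's mean. The nearest to Ltf were Ly6d (2.69) and Pigr (2.81), farther than the nearest of any other of the 9 genes. Lcn2 was nearest to the protease inhibitor Spink12 (1.30) and the retinol transporter Stra6 (1.39), Pigr to Clic6 (0.967) and the lipase Lipk (0.968), and Wfdc2 to Fat2 (1.01) and Lipk (1.06). Sftpd was nearest to Atp13a5 (1.04) and the glutathione peroxidase Gpx2 (1.32). Slpi had the closest of all, the prostaglandin transporter Slco2a1 (0.771) and Vamp5 (0.774). S100a9 was nearest to the cornified envelope gene Cnfn (1.61) and the cytokine Il36g (1.69), S100a8 to Uox (2.13) and Mab21l3 (2.16), and Psca to the protease Tmprss11g (1.46) and the keratin Krt6b (1.47). Stra6, for one, stood at 377, 293 and 7.98 CPM in iCEC 1 to 3, at 0.277 to 0.803 CPM in pCEC and at 0.628 to 0.880 CPM in pNCC.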

How the data were processed

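RNA from 9 libraries (NEBNext Ultra RNA kit, 150-base paired reads, per the labels' protocols) was counted per gene by the authors, and the deposited count table holds raw counts per gene symbol. The build mm10 and edgeR are named in the submitters' processing notes. The aligner, counter, annotation and strand setting are not given in the sources used here.

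Levels are CPM, each count scaled to its library's total. Each pair of groups was fitted alone with edgeR 4.0.16 (R 4.3.3): filterByExpr, TMM scaling, robust quasi-likelihood test, and Benjamini-Hochberg adjustment across the genes tested, called at 0.05. A list's medians and counts cover its genes that passed the filter. The log2 ratio of the groups' mean TMM factors was -0.13 for pCEC over pNCC, 0.12 for iCEC over pCEC and -0.000395 for iCEC over pNCC. Since counts are divided by these factors, fitted log2 fold changes lie above those of plain CPM in pCEC against pNCC and below them in iCEC against pCEC. Folds against a group at 0 were bounded at 3 counts per library, and against 1 to 3 counts the ratio of summed counts has a 95% exact interval. Intervals and limits cover counting error only.

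The 9 genes and the lists were chosen with earlier results of these data known. Within each list, up to 4 called genes with the lowest adjusted p were named for each comparison. For each of the 9 genes, 2 protein-coding neighbours on each side and the 2 nearest profiles (genes with a mean of at least 10 CPM) were named. Positions, exon lengths (union of exons) and neighbours come from GENCODE M21 (GRCm38), and promoters from RefSeq (GRCm38.p6). The fit was tested on simulated data. Alternatives were DESeq2 1.42.0 and its size factors, other filters, all 9 libraries in 1 fit, a replicate block, each library left out, and pCEC by its library labelled polyA RNA.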

Additional observations from a re-analysis of the deposited data

How the results depend on the processing

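Of 291 values of the 9 genes recomputed under the alternatives, 265 moved by less than the spread between replicates, 14 moved further and 12 changed sign. The log2 fold change of Lcn2 in pCEC against pNCC, -0.50, was 0.0481 without pCEC 1 and 0.0326 without pCEC 2, in a range of -2.68 (without pCEC 3) to 1.01 (without pNCC 1) with each library left out. In iCEC against pCEC, that of S100a8, -1.08, was 5.27 with the replicate block, -1.69 to 7.42 with each library left out (7.42 without pCEC 3) and 6.51 with pCEC by the library labelled polyA RNA alone. That of S100a9, -0.61, was 3.96 with the block, 0.0227 without iCEC 3, -1.24 to 5.00 with each library left out (5.00 without pCEC 3) and 4.64 with the polyA library alone, and that of Psca, 0.69, was -0.24 with the block and -0.00876 (without iCEC 2) to 1.29 (without iCEC 3) with each library left out. Deviations of same-numbered libraries correlated at -0.0738 to -0.0162 (iCEC and pNCC), 0.000135 to 0.0716 (pCEC and pNCC) and -0.208 to 0.00052 (iCEC and pCEC). Those of differently numbered libraries correlated at -0.0479 to 0.0877, -0.0752 to 0.0662 and -0.163 to 0.195 in that order. With 3 libraries in a group, these values cannot decide if libraries that share a number were paired. With the replicate block the numbers of related genes called were 43, 77 and 18 for iCEC against pNCC, pCEC against pNCC and iCEC against pCEC, beside 58, 82 and 37 with no block. Leaving out each library in turn gave 29 to 76, 76 to 82 and 14 to 56 in that order of comparisons. With pCEC by the polyA library alone, iCEC against pCEC had 0 related genes called by edgeR, 31 at an unadjusted p under 0.05, while DESeq2 on all libraries called 45. Over all genes, counts of calls were 5093, 10382 and 3327 with edgeR and 6589, 10625 and 4888 with DESeq2, and 2864, 9777 and 1295 with the block. The causes were not tested. Depth limits the comparison of genes near 3 counts per library, 0.0625 to 0.110 CPM.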
